A study of Morchella sextelata with 15 samples.

Results

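The transcripts described here were higher in mycelium grown on either of 2 chloroacetanilide herbicides than on either of 2 dinitroaniline herbicides. They numbered 53 of the 20602 transcripts listed for the cultivated black morel Morchella sextelata. RNA was sequenced from wild-type mycelium in 15 libraries, 3 for each of 5 groups. These were S-metolachlor and acetochlor (chloroacetanilides), pendimethalin and trifluralin (dinitroanilines) and a control with no herbicide. All cultures were kept for 5 days at 20 °C on potato dextrose agar, and each herbicide was present at 10 times the concentration normally applied, so doses are matched as multiples of a field rate and not as amounts. The labels name no strain and do not say whether libraries of a group came from separate cultures, so p-values measure the spread between these libraries, which may be technical. Levels are in FPKM, which scale fragments by transcript length and library size.

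The members were chosen from the FPKM table. The smaller of the S-metolachlor and acetochlor means had to be at least 5 FPKM and at least 1.5 times the larger of the trifluralin and pendimethalin means. All 6 chloroacetanilide libraries had to lie above all 6 dinitroaniline libraries, and the 2 chloroacetanilide means had to be within 4-fold of each other. The 100 rows with the highest control mean were left out, although none of them met the other criteria. The separation of the classes is therefore how the members were found and not a result. The control libraries were not otherwise used, and their level is what tells a rise from a fall. Among members the chloroacetanilide side exceeded the dinitroaniline side by a median factor of 1.90, with a range from 1.52 to 13.8. The members nearest the threshold were TRINITY_DN8129_c0_g1_i1_1 at 1.52 and TRINITY_DN2937_c0_g1_i2_3 at 1.52. TRINITY_DN11185_c0_g1_i1_1, at 1.4998, and TRINITY_DN4424_c0_g1_i1_4, at 1.49, fell just outside. The rule rests on single libraries to a degree, since it gave 106 transcripts without pendimethalin replicate 3, 88 without acetochlor replicate 3 and 80 without acetochlor replicate 1.

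In plants, chloroacetanilides block the elongases that make very-long-chain fatty acids, which end up in waxes, sphingolipids and membranes, and dinitroanilines bind tubulin and stop microtubules from growing. Fungi have both tubulins and fatty acid elongases, and also enzymes such as cytochromes P450, glutathione transferases and membrane transporters that handle foreign compounds. Both chloroacetanilides carry a chloroacetyl group on an aniline nitrogen and a ring with an ethyl and a methyl group, and they differ in the ether side chain on the nitrogen, which is branched in S-metolachlor. The rows are names from a transcript assembly, none of which occurs among the 13182 genes of the reference gene table, so no member can be assigned to any of these families and the mycelial identity of the samples could not be checked against marker genes. Members are called by their assembly names.

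Library totals ranged from 22923346 to 24766457 expected counts, which are estimated fragments per transcript. Each herbicide was compared with control, and acetochlor with S-metolachlor, with edgeR's quasi-likelihood test on all 15 libraries, adjusted over 17555 transcripts, and a transcript is called below at an adjusted p under 0.05. All 53 members were among those tested. The lowest count of any member in any library was 3.95, 2 members had a count under 10 in some library, and the median over members of the mean count was 882.

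The control libraries stood between the classes in summed level. In S-metolachlor libraries the 53 transcripts made up 1.09%, 0.934% and 1.10% of the summed FPKM, and in acetochlor libraries 0.810%, 0.727% and 0.606%. They made up 0.283%, 0.279% and 0.260% with trifluralin and 0.220%, 0.273% and 0.301% with pendimethalin, sides that the choice of members set apart. Control libraries were at 0.441%, 0.349% and 0.515%. Relative to each transcript's own mean over all libraries on a log2 scale, the median over members was -0.22, -0.45 and -0.02 in control replicates 1, 2 and 3. In FPKM these medians lay nearer to the dinitroaniline libraries, at -0.86 to -0.37, than to the chloroacetanilide libraries, at 0.38 to 0.98. This nearness depends on the scale. The edgeR fits, which rescale the libraries, gave median log2 changes from control of 0.95 with S-metolachlor and 0.69 with acetochlor. They gave -0.58 with trifluralin and -0.60 with pendimethalin. Control replicate 2 was the lowest control library in 35 of the 53 members. In bulk RNA, fewer cells with a transcript and less of it per cell cannot be told apart.

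**Figure D1:**
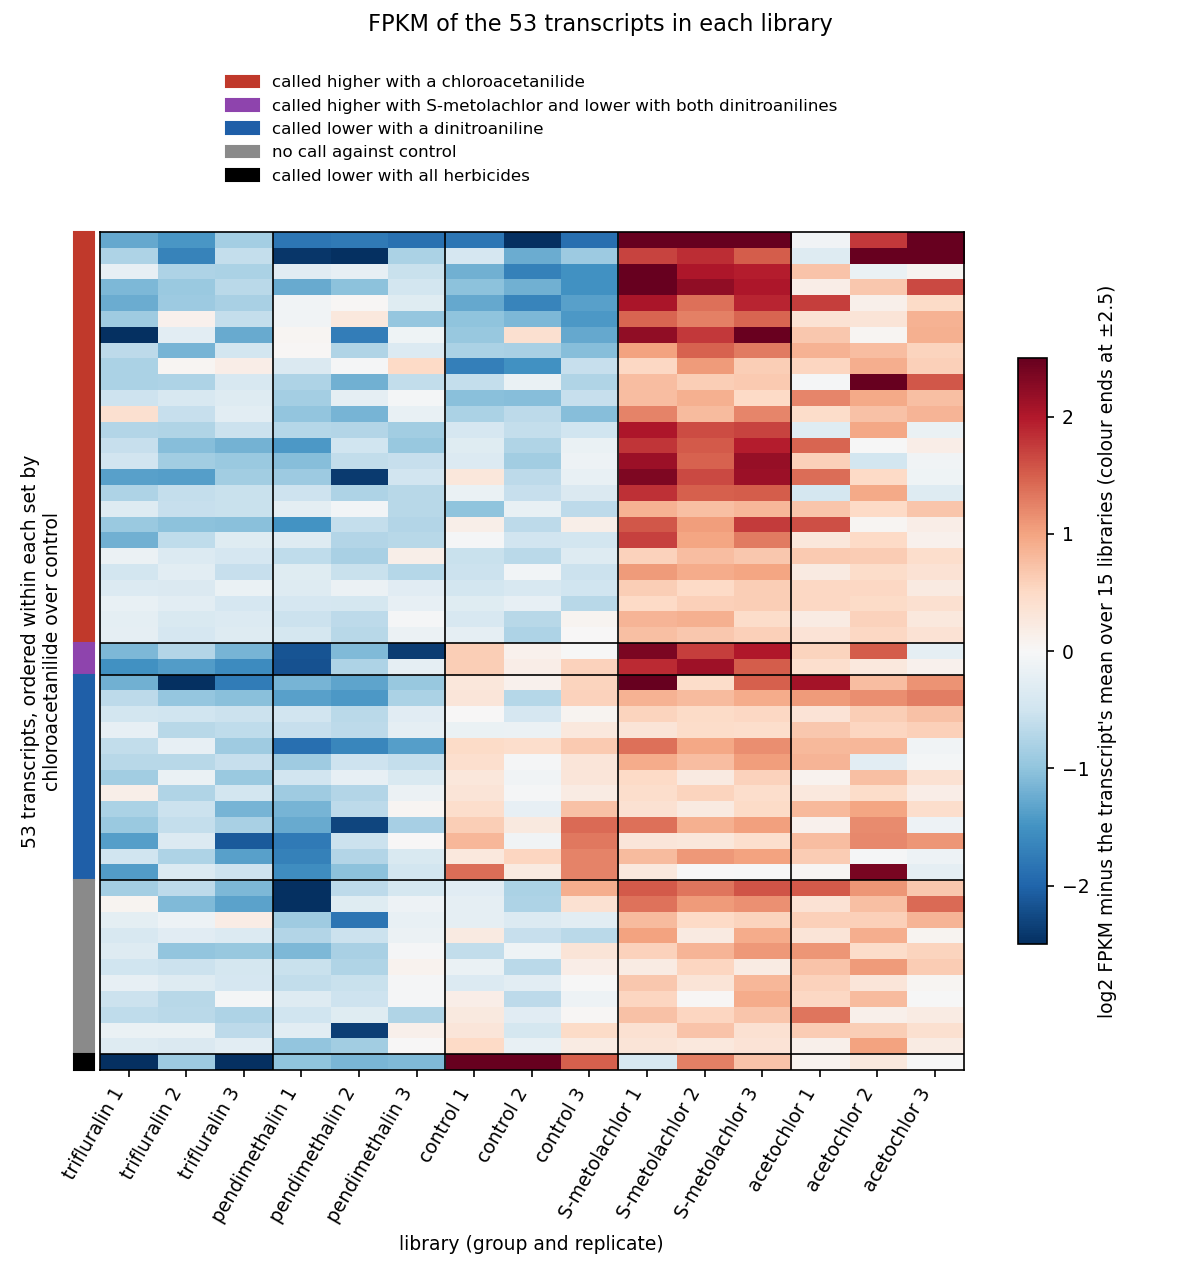
Heat map of the 53 transcripts (rows) in 15 libraries (columns), as log2 FPKM minus the transcript's mean over all libraries. The bar on the left gives the calls against control. The upper block of 26 transcripts is mostly blue in dinitroaniline and control libraries, whereas in the block of 13 called lower with a dinitroaniline, most control libraries share the red of the chloroacetanilides.

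Against control, some members were higher under the chloroacetanilides and others were lower under the dinitroanilines. Over members the median log2 ratio to the control mean was 0.95 for the chloroacetanilide mean and -0.33 for the dinitroaniline mean, in FPKM. All 3 control libraries lay below all 6 chloroacetanilide libraries in 28 members, above all of them in 1 and among them in 24. Over all transcripts tested, 10.8% had the control libraries below and 7.62% above. All 3 control libraries lay above all 6 dinitroaniline libraries in 12 members, below all of them in 4 and among them in 37, against 7.75% above and 13.1% below over all transcripts tested. Since the herbicide libraries chose the members, these shares are given as background and nothing is read from the excess. Scaling by TMM, which sets libraries level over most transcripts, changed the counts of 28 and 12 to 18 and 15. Its factors were 0.901, 0.982 and 0.830 in control and 0.928 to 1.09 in the herbicide libraries. The count of 12 was 26 without control replicate 2.

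**Figure D2:**
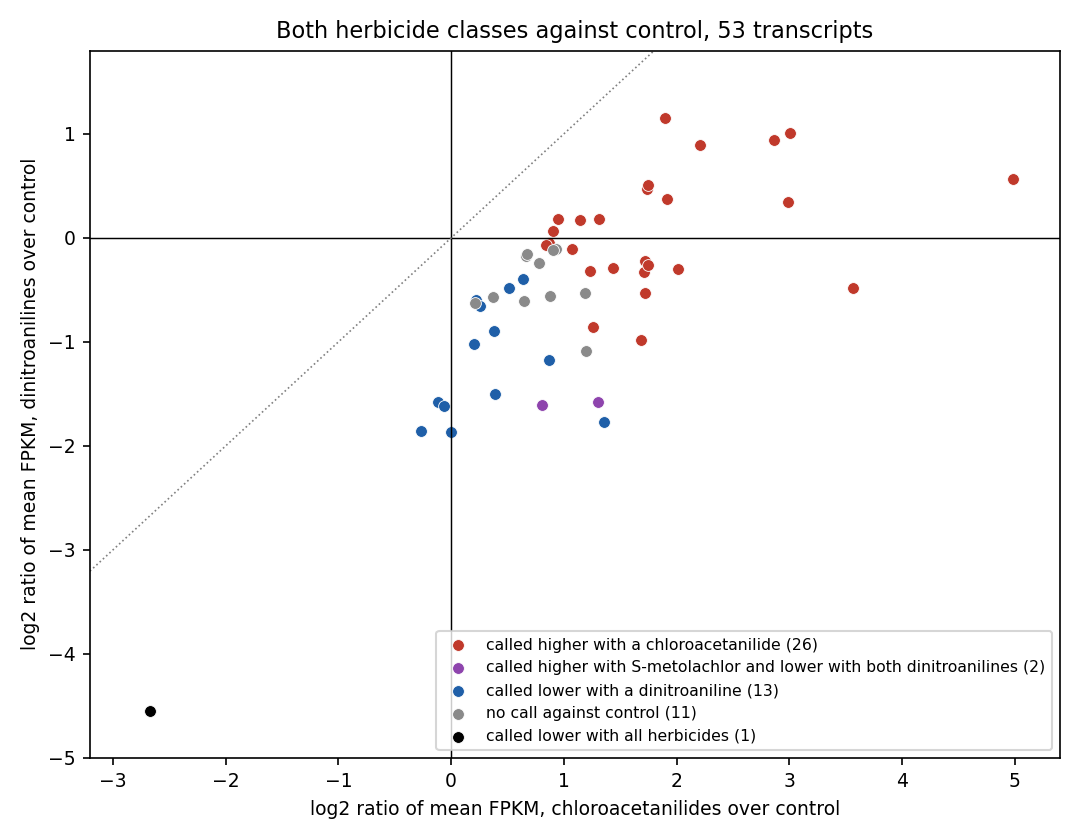
Each of the 53 transcripts by its log2 ratio of mean FPKM to control under the chloroacetanilides (horizontal) and under the dinitroanilines (vertical), with the dotted line where both are equal. Points lie to the right of that line by the choice of members, and the 26 transcripts called higher with a chloroacetanilide spread along the horizontal axis up to 4.98, while the 13 called lower with a dinitroaniline reach down to -1.87.

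Counted by test, 27 members were called higher and 1 lower with S-metolachlor, against 24.4% higher and 21.7% lower over all transcripts tested. With acetochlor, 16 were called higher and 1 lower, against 5.26% and 4.46%. With trifluralin 14 were called lower and 0 higher, against 7.00% and 7.68%, and with pendimethalin 11 were called lower and 0 higher, against 5.54% and 7.35%. The 0 stands against 24 and 26 members with an unadjusted p under 0.05 in either direction for trifluralin and pendimethalin, and limma on log2(FPKM + 1) called 1 and 3 members higher, where DESeq2 called 0 and 3. All 4 comparisons share the control libraries. In either direction 28 members were called with S-metolachlor (46.1% over all transcripts tested), 17 with acetochlor (9.72%), 14 with trifluralin (14.7%) and 11 with pendimethalin (12.9%). The herbicide libraries chose the members, and nothing is read from these shares.

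The order of libraries in FPKM was counted as well. All S-metolachlor libraries lay above all control libraries in 42 members (39.5% over all transcripts tested) and below them in 1 (23.3%). For acetochlor the counts were 29 above (15.8%) and 1 below (12.1%). Trifluralin libraries lay below control in 18 members (14.3%) and above in 7 (23.2%), and pendimethalin libraries below in 15 (10.8%) and above in 6 (18.9%). The members' median log2 fold changes were 0.95 with S-metolachlor and 0.69 with acetochlor, where the medians of all transcripts tested were 0.09 and 0.00. They were -0.58 with trifluralin and -0.60 with pendimethalin, against -0.01 and 0.02. In all, 28 members were called higher with at least 1 chloroacetanilide (26.5% over all transcripts tested) and 16 lower with at least 1 dinitroaniline (8.57%). These sets had 2 members in common (0.473%), and 11 members had no call (47.1%). The rule used the herbicide libraries of these comparisons too.

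Both chloroacetanilides raised 15 members above control, which over all transcripts tested was so for 3.18%. Their fitted log2 fold changes ran from 0.74 to 5.03 with S-metolachlor and from 0.62 to 4.43 with acetochlor. None of the 15 was called with trifluralin or pendimethalin, where the medians were 0.13 and 0.08. The largest rise was in TRINITY_DN5538_c0_g1_i1_5. Its control libraries were at 2.44, 1.51 and 2.31 FPKM, its trifluralin libraries at 3.47, 3.08 and 4.70 and its pendimethalin libraries at 2.43, 2.496 and 2.34. It reached 83.8, 75.8 and 80.4 FPKM with S-metolachlor and 7.95, 28.9 and 119 with acetochlor. Every chloroacetanilide library was above every control library, with even levels under S-metolachlor and uneven ones under acetochlor. The log2 fold change against control was 5.03 (standard error 0.71, adjusted p = 0.000140 by edgeR) and 4.43 (standard error 0.69, adjusted p = 0.00227 by edgeR). The latter was 3.09 without acetochlor replicate 3.

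TRINITY_DN895_c0_g1_i1_3 followed the same order of acetochlor libraries. It was at 4.07, 2.31 and 2.93 FPKM in control, at 17.5, 19.7 and 15.6 with S-metolachlor and at 4.34, 38.1 and 125 with acetochlor. Acetochlor replicate 1 was just above the highest control library, and replicate 3 was far above all others. The trifluralin libraries were at 3.20, 1.72 and 3.64 and the pendimethalin libraries at 1.02, 0.584 and 3.13 FPKM, on either side of the lowest control. The log2 fold changes were 3.97 (standard error 0.89, adjusted p = 0.0157 by edgeR) with acetochlor and 2.27 (standard error 0.84, adjusted p = 0.0400 by edgeR) with S-metolachlor. Neither call was steady. That with acetochlor was lost without acetochlor replicate 3 (log2 fold change 2.72), without control replicate 1, without control replicate 3 and with only the compared groups fitted, and over 13 alternatives its adjusted p (edgeR, DESeq2 or limma) ran from 2.52e-05 to 0.0650. That with S-metolachlor was lost without any 1 of the 6 libraries, with an adjusted p from 0.000883 to 0.113 over its alternatives.

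In 4 members, named here after their values were seen, the control libraries lay below those of all 4 herbicides in FPKM. Each was called higher with both chloroacetanilides and with neither dinitroaniline. How many of all transcripts had this order was not counted, and nothing is read from the 4. TRINITY_DN8129_c0_g1_i1_1 was at 2.45, 1.74 and 1.96 FPKM in control, 4.87, 3.31 and 3.25 with trifluralin, 4.61, 4.85 and 3.82 with pendimethalin, 9.18, 5.02 and 5.93 with acetochlor and 34.0, 22.97 and 22.1 with S-metolachlor. Its control libraries were thus below the dinitroanilines and its acetochlor libraries below S-metolachlor, while the step between the classes was set by the rule. Acetochlor replicate 2 was only just above the highest dinitroaniline library. Its log2 fold changes were 3.45 (standard error 0.31, adjusted p = 5.86e-06 by edgeR) with S-metolachlor and 1.60 (standard error 0.29, adjusted p = 0.00511 by edgeR) with acetochlor, against 0.90 (standard error 0.28, adjusted p = 0.0538 by edgeR) with pendimethalin. TRINITY_DN4957_c0_g1_i1_3 was at 10.2, 7.91 and 9.65 FPKM in control, 10.6, 13.3 and 14.1 with trifluralin and 23.5, 25.3 and 20.1 with pendimethalin. With S-metolachlor it was at 102, 64.3 and 92.6 FPKM and with acetochlor at 82.5, 27.2 and 34.7, where replicate 1 stood apart. Its log2 fold changes were 2.99 (standard error 0.38, adjusted p = 6.99e-05 by edgeR) and 2.29 (standard error 0.37, adjusted p = 0.00306 by edgeR), the latter 1.55 without acetochlor replicate 1. With trifluralin its change was 0.24 (standard error 0.36, adjusted p = 0.683 by edgeR) and with pendimethalin 1.10 (standard error 0.36, adjusted p = 0.0619 by edgeR). In TMM-scaled CPM, trifluralin replicate 1 (37.9) was below control replicates 1 (41.3) and 3 (42.3).

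TRINITY_DN7540_c0_g1_i2_1 was at 11.8, 11.0 and 8.83 FPKM in control, 65.6, 57.4 and 65.1 with S-metolachlor and 30.7, 30.0 and 43.3 with acetochlor. The 6 chloroacetanilide libraries were all above the control libraries, by log2 fold changes of 2.36 (standard error 0.31, adjusted p = 8.11e-05 by edgeR) and 1.60 (standard error 0.30, adjusted p = 0.00654 by edgeR). With trifluralin the change was 0.58 (standard error 0.29, adjusted p = 0.196 by edgeR) and with pendimethalin 0.80 (standard error 0.30, adjusted p = 0.0908 by edgeR). In TMM-scaled CPM, trifluralin replicate 1 (40.9) and pendimethalin replicate 3 (38.4) were below control replicate 1 (42.5). TRINITY_DN511_c0_g1_i1_3 was at 28.4, 29.5 and 27.3 FPKM in control, 59.6, 54.9 and 59.1 with S-metolachlor and 55.5, 55.3 and 45.1 with acetochlor. Its rises were 0.81 (standard error 0.15, adjusted p = 0.00109 by edgeR) and 0.78 (standard error 0.15, adjusted p = 0.00836 by edgeR) on the log2 scale, the latter lost with only the compared groups fitted (adjusted p from 1.12e-05 to 0.0621 over 13 alternatives). Its dinitroaniline libraries, at 30.1 to 35.3 FPKM, differed from control by -0.04 (standard error 0.15, adjusted p = 0.877 by edgeR) with trifluralin and 0.01 (standard error 0.15, adjusted p = 0.990 by edgeR) with pendimethalin once TMM-scaled, so its FPKM order of control below the dinitroanilines was not kept in the fit. TRINITY_DN2937_c0_g1_i2_3, one of those nearest the threshold, was at 67.9, 77.5 and 149 FPKM in control and 318, 467 and 340.2 with S-metolachlor. It was at 324, 415 and 333 FPKM with acetochlor and at 129 to 313 FPKM in the dinitroaniline libraries, so that control had the lowest mean there too. Its log2 fold changes were 1.68 (standard error 0.37, adjusted p = 0.00271 by edgeR) with S-metolachlor, 1.73 (standard error 0.37, adjusted p = 0.0121 by edgeR) with acetochlor (lost without control replicate 1, with an adjusted p from 0.000183 to 0.0690 over 13 alternatives) and 1.03 (standard error 0.36, adjusted p = 0.0772 by edgeR) with pendimethalin.

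**Figure D3:**
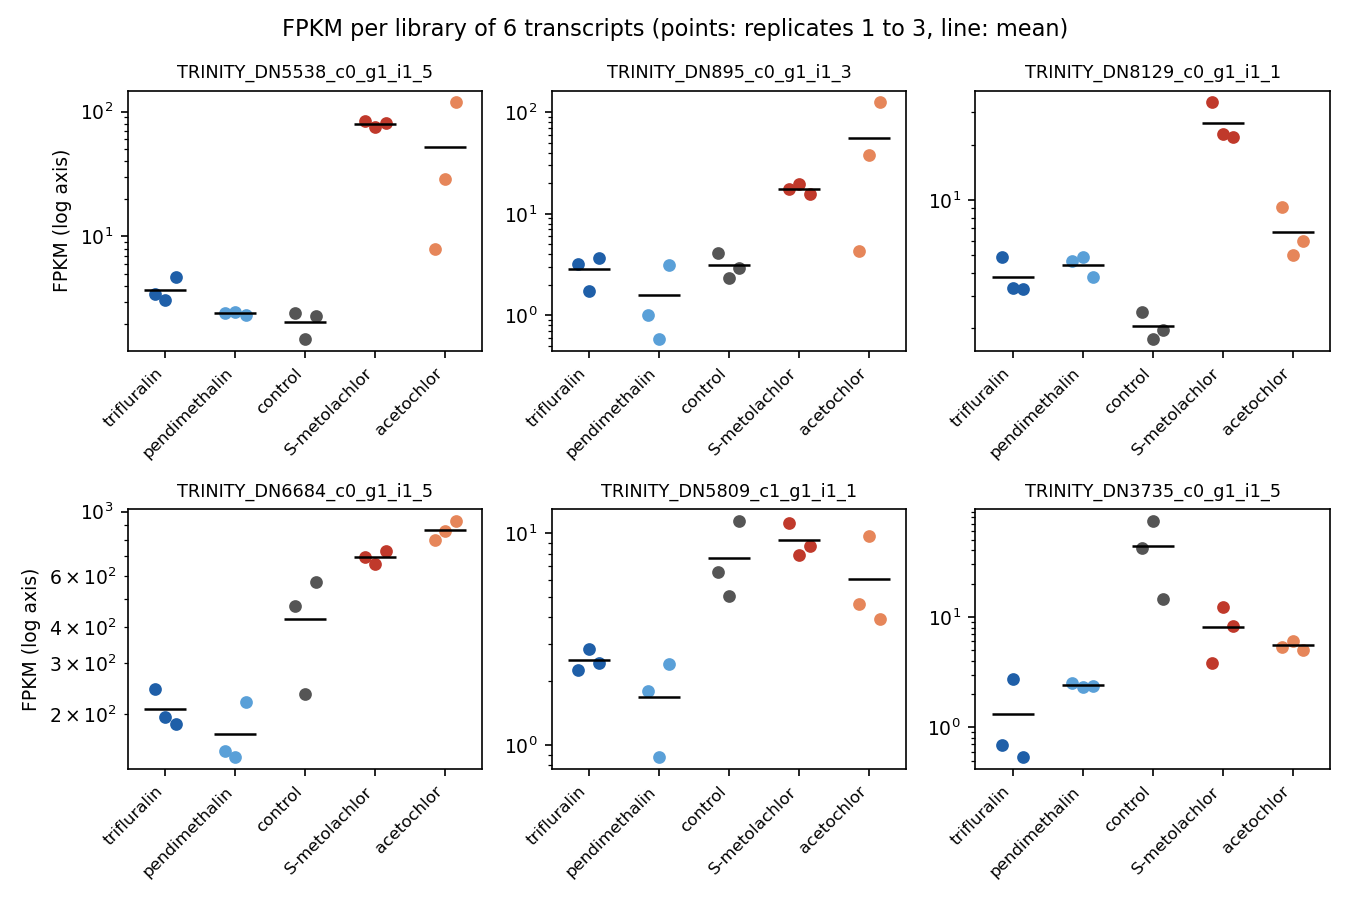
FPKM on a log axis in each library for 6 transcripts, with points for replicates 1 to 3 and a line at the group mean. In the upper row the S-metolachlor and acetochlor libraries are above control, with TRINITY_DN5538_c0_g1_i1_5 at 75.8 to 83.8 FPKM under S-metolachlor. In the lower row the dinitroaniline libraries are below the control mean, and in TRINITY_DN3735_c0_g1_i1_5 all herbicide libraries are below all controls.

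A further 12 of the 53 members were called higher with S-metolachlor and not with acetochlor, a share near the 21.2% of all transcripts tested and thus not a result about the members. Their fitted log2 fold changes had a median of 1.66 with S-metolachlor and 0.55 with acetochlor, and 11 of the 12 were above 0 with acetochlor. The difference between the 2 herbicides was itself called in 5 of the 12, and was not shown in the other 7. TRINITY_DN8507_c0_g2_i1_1, with the second highest mean of all members over the chloroacetanilide libraries (483 FPKM, as for TRINITY_DN6341_c0_g2_i1_4), is of this kind. It was at 235, 135 and 235 FPKM in control, 628, 441 and 716 with S-metolachlor and 652, 222 and 238 with acetochlor. S-metolachlor libraries were all above control, whereas acetochlor replicate 1 was near the S-metolachlor level and replicates 2 and 3 were near the higher control libraries. The log2 fold changes were 1.32 (standard error 0.44, adjusted p = 0.0260 by edgeR) and 0.78 (standard error 0.44, adjusted p = 0.296 by edgeR). The S-metolachlor call was lost without S-metolachlor replicate 1 or 3 or control replicate 1 or 2, with an adjusted p from 0.00421 to 0.0933 over 13 alternatives.

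TRINITY_DN8507_c0_g1_i1_1 carries the same assembly component number, so the pair are not independent, and whether they are parts of one transcript was not tested. It was at 14.4, 9.94 and 16.7 FPKM in control, 79.4, 50.3 and 81.6 with S-metolachlor and 27.4, 13.2 and 17.1 with acetochlor, again with acetochlor replicate 1 the highest of its group. It was called higher with S-metolachlor, at 2.12 (standard error 0.34, adjusted p = 0.000355 by edgeR), and was at 0.37 (standard error 0.33, adjusted p = 0.518 by edgeR) with acetochlor. The reverse pattern, a call with acetochlor and not with S-metolachlor, was seen in 1 member, a share near the 2.07% of all transcripts tested. It was TRINITY_DN7158_c0_g1_i3_5, named after its values were seen. It was at 2.74, 3.67 and 2.43 FPKM in control, 6.998, 6.25 and 6.45 with S-metolachlor and 4.04, 23.7 and 12.0 with acetochlor. All 6 chloroacetanilide libraries were above the controls, and acetochlor replicate 2 was the highest by far. The log2 fold change was 2.08 (standard error 0.45, adjusted p = 0.0127 by edgeR) with acetochlor and 0.95 (standard error 0.43, adjusted p = 0.0898 by edgeR) with S-metolachlor, and the acetochlor value was 1.24 without acetochlor replicate 2. Its call was lost without control replicate 1 or 3 and with only the compared groups fitted (adjusted p from 0.000163 to 0.0742 over 13 alternatives). The fitted difference between the herbicides, 1.14 (standard error 0.43, adjusted p = 0.0549 by edgeR), was not called.

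Among the 16 members called lower with a dinitroaniline, 9 were called with both and 5 with trifluralin and 2 with pendimethalin, not with the other. Both dinitroanilines lowered 3.98% of all transcripts tested. The 16 had median log2 fold changes of -1.43 with trifluralin and -1.59 with pendimethalin, and medians of 0.13 with S-metolachlor and 0.10 with acetochlor. In 2 of the 16, described below, S-metolachlor was also called higher, and in 1 both chloroacetanilides were called lower. These calls rest on few libraries. The number called lower with trifluralin, 14, was 8, 8 and 2 without trifluralin replicates 1, 2 and 3, 5 without control replicate 1 and 2 without control replicate 3. The number called lower with pendimethalin, 11, was 6 without pendimethalin replicate 1 or 2 or control replicate 1, 5 without control replicate 3 and 17 without pendimethalin replicate 3.

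TRINITY_DN6684_c0_g1_i1_5 had the highest mean of all members over the chloroacetanilide libraries. It was at 245, 195 and 185 FPKM with trifluralin and 149, 142 and 221 with pendimethalin. Control libraries were at 473, 234 and 573, S-metolachlor libraries at 698, 661 and 733 and acetochlor libraries at 801, 856 and 929 FPKM. Control replicate 2 was within the trifluralin range, and all control libraries were below all chloroacetanilide libraries in FPKM. In TMM-scaled CPM, control replicate 3, at 1771, was above S-metolachlor replicates 1 and 2, at 1686 and 1581. The log2 fold changes were -1.56 (standard error 0.33, adjusted p = 0.00989 by edgeR) with pendimethalin and -1.27 (standard error 0.32, adjusted p = 0.0223 by edgeR) with trifluralin. They were 0.87 (standard error 0.32, adjusted p = 0.109 by edgeR) with acetochlor and 0.45 (standard error 0.32, adjusted p = 0.265 by edgeR) with S-metolachlor. The trifluralin call was lost without trifluralin replicate 2 or 3 or control replicate 1 or 3, and both calls were lost with only the compared groups fitted (adjusted p from 0.00160 to 0.101 with trifluralin and from 6.99e-05 to 0.106 with pendimethalin over the alternatives).

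TRINITY_DN5809_c1_g1_i1_1 had control and chloroacetanilide libraries in overlapping ranges. It was at 6.53, 5.05 and 11.4 FPKM in control, 11.2, 7.91 and 8.72 with S-metolachlor and 4.64, 9.70 and 3.92 with acetochlor, against 2.26, 2.85 and 2.44 with trifluralin and 1.79, 0.873 and 2.42 with pendimethalin. All 3 control libraries lay above the 6 dinitroaniline libraries, as the chloroacetanilide libraries did by the rule. Pendimethalin lowered it, with a log2 fold change of -2.42 (standard error 0.47, adjusted p = 0.00703 by edgeR), a call lost with only the compared groups fitted (adjusted p from 1.13e-05 to 0.0696 over 13 alternatives). Trifluralin gave -1.85 (standard error 0.46, adjusted p = 0.0195 by edgeR), lost without trifluralin replicate 1 or 3 or control replicate 3. With S-metolachlor the difference from control was 0.01 (standard error 0.44, adjusted p = 0.987 by edgeR), with a 95% interval from -0.94 to 0.96.

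TRINITY_DN4963_c0_g1_i4_1 was at 9.19, 4.92 and 12.9 FPKM in control, 2.003, 4.08 and 1.22 with trifluralin, 1.53, 3.56 and 5.22 with pendimethalin, 6.39, 6.31 and 6.93 with S-metolachlor and 8.84, 11.9 and 11.2 with acetochlor. Control replicate 2 was below the S-metolachlor libraries and within the pendimethalin range. The fall with trifluralin was -2.12 (standard error 0.53, adjusted p = 0.0206 by edgeR), or -2.72 without trifluralin replicate 2, and it lost its call without trifluralin replicate 1 or 3, without control replicate 1 or 3 and with only the compared groups fitted (adjusted p from 0.000874 to 0.0915 over 13 alternatives). TRINITY_DN4498_c0_g1_i1_3, named after its values were seen, was the member in which the control libraries, at 23.01, 23.4 and 31.0 FPKM, lay between the classes without overlap. The same order in FPKM held in 0.0114% of all transcripts tested. In TMM-scaled CPM it was not kept, since control replicate 3, at 67.7, was above the S-metolachlor libraries, at 54.8, 60.1 and 61.7. Its dinitroaniline libraries were at 16.1 to 22.3 FPKM and its chloroacetanilide libraries at 32.1 to 41.3 FPKM. The falls were -0.71 (standard error 0.21, adjusted p = 0.0385 by edgeR) and -0.68 (standard error 0.21, adjusted p = 0.0479 by edgeR), with 8 and 9 of 13 alternatives losing the call (adjusted p from 0.0106 to 0.158 and from 0.0155 to 0.168), among them the fits without control replicate 1 or 3, trifluralin replicate 2 or 3 and pendimethalin replicate 1 or 2. The difference with acetochlor, 0.49 (standard error 0.21, adjusted p = 0.158 by edgeR), did not pass. Nor did that with S-metolachlor, 0.17 (standard error 0.21, adjusted p = 0.510 by edgeR).

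Calls in both directions occurred in 2 members, named after their values were seen. TRINITY_DN8547_c0_g1_i2_1 was at 201, 141 and 129.9 FPKM in control, 675, 438 and 529 with S-metolachlor and 195, 376 and 112 with acetochlor, so that acetochlor spanned the control range. It was at 60.8, 79.2 and 58.7 FPKM with trifluralin and 29.4, 61.5 and 25.5 with pendimethalin. Its log2 fold changes were 1.58 (standard error 0.45, adjusted p = 0.0119 by edgeR) with S-metolachlor, -2.21 (standard error 0.46, adjusted p = 0.00979 by edgeR) with pendimethalin and -1.45 (standard error 0.45, adjusted p = 0.0468 by edgeR) with trifluralin. The trifluralin call was lost without any 1 of the trifluralin libraries, without control replicate 1 or 3 and without the filter (adjusted p from 0.0100 to 0.158 over 13 alternatives).

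TRINITY_DN5253_c0_g2_i1_2 was at 12.9, 9.40 and 12.5 FPKM in control, 30.7, 36.6 and 23.9 with S-metolachlor and 11.2, 10.1 and 9.02 with acetochlor. The trifluralin libraries were at 2.95, 3.17 and 2.84 and the pendimethalin libraries at 1.85, 4.94 and 7.14 FPKM, below all controls. Here acetochlor was at the control level and S-metolachlor above it, with a log2 fold change of 1.15 (standard error 0.39, adjusted p = 0.0283 by edgeR), lost without S-metolachlor replicate 1 or 2 or any 1 of the control libraries (adjusted p from 0.00307 to 0.0980). The falls were -2.15 (standard error 0.42, adjusted p = 0.00689 by edgeR) with trifluralin and -1.51 (standard error 0.40, adjusted p = 0.0285 by edgeR) with pendimethalin. The latter was lost without pendimethalin replicate 1 or 2 or control replicate 1 or 3, with the replicate block and with only the compared groups fitted (adjusted p from 0.00198 to 0.158).

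TRINITY_DN3735_c0_g1_i1_5 was the single member with control above all herbicides, an order whose share over all transcripts was not counted. Its control libraries were at 41.8, 74.1 and 14.5 FPKM, its S-metolachlor libraries at 3.85, 12.3 and 8.31, its acetochlor libraries at 5.39, 6.09 and 5.06, its trifluralin libraries at 0.690, 2.72 and 0.534 and its pendimethalin libraries at 2.53, 2.32 and 2.38. No herbicide library reached the lowest control library, and the class difference is one between a smaller and a larger fall. The log2 fold changes were -2.58 (standard error 0.62, adjusted p = 0.00484 by edgeR) with S-metolachlor, -3.02 (standard error 0.63, adjusted p = 0.0117 by edgeR) with acetochlor, -5.18 (standard error 0.71, adjusted p = 0.000968 by edgeR) with trifluralin and -4.31 (standard error 0.68, adjusted p = 0.00269 by edgeR) with pendimethalin. All 4 calls were kept in each alternative, and the fall with trifluralin was -6.28 without trifluralin replicate 2.

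The 11 members without a call against control had fitted log2 fold changes from -0.13 to 1.09 with S-metolachlor, 0.20 to 0.90 with acetochlor, -1.24 to 0.02 with trifluralin and -1.41 to -0.32 with pendimethalin. Their median control level of 6.86 FPKM lay between the dinitroaniline medians of 5.54 and 5.48 and the chloroacetanilide medians of 9.78 and 11.3 FPKM. Whether these transcripts rise under one class or fall under the other was not detectable with 3 libraries a group. All 3 control libraries lay below all chloroacetanilide libraries in 4 of them and above all dinitroaniline libraries in 1.

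Acetochlor and S-metolachlor, the 1 pair of chloroacetanilides, were compared directly at the same multiple of their field rates. The rule kept their means within 4-fold, so the size of any difference among members is bounded and the values are a description. S-metolachlor had the higher mean in 39 of the 53 members, and the median ratio of S-metolachlor to acetochlor was 1.23, with a range from 0.315 to 3.93. The share of all transcripts with a higher S-metolachlor mean was not counted, and nothing is read from the 39. All S-metolachlor libraries were above all acetochlor libraries in 18 members and below them in 4, against 33.8% and 22.6% of all transcripts tested. By test, 8 members were lower and 0 higher with acetochlor, against 19.5% and 17.9%, or 37.3% in either direction. Of the members, 15 had an unadjusted p under 0.05, and DESeq2 called 13, of which 1 was higher. The count was 14 without acetochlor replicate 1.

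The largest called difference was in TRINITY_DN8129_c0_g1_i1_1, whose levels are given above, with a log2 difference of -1.84 (standard error 0.29, adjusted p = 0.000454 by edgeR) for acetochlor against S-metolachlor. TRINITY_DN8507_c0_g1_i1_1 followed, at -1.75 (standard error 0.34, adjusted p = 0.00170 by edgeR). TRINITY_DN5253_c0_g2_i1_2, called higher with S-metolachlor and not with acetochlor, differed by -1.45 (standard error 0.39, adjusted p = 0.0119 by edgeR). For the members that were not called, a like response is not shown. The 95% interval of the log2 difference reached a median of 0.70 to either side, and it lay within 2-fold in both directions in 21 of the 53 members. In TRINITY_DN5538_c0_g1_i1_5 the log2 difference was -0.60 (standard error 0.59, adjusted p = 0.458 by edgeR), with an interval from -1.87 to 0.68. In TRINITY_DN511_c0_g1_i1_3 it was -0.03 (standard error 0.15, adjusted p = 0.899 by edgeR), with an interval from -0.36 to 0.30.

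**Figure D4:**
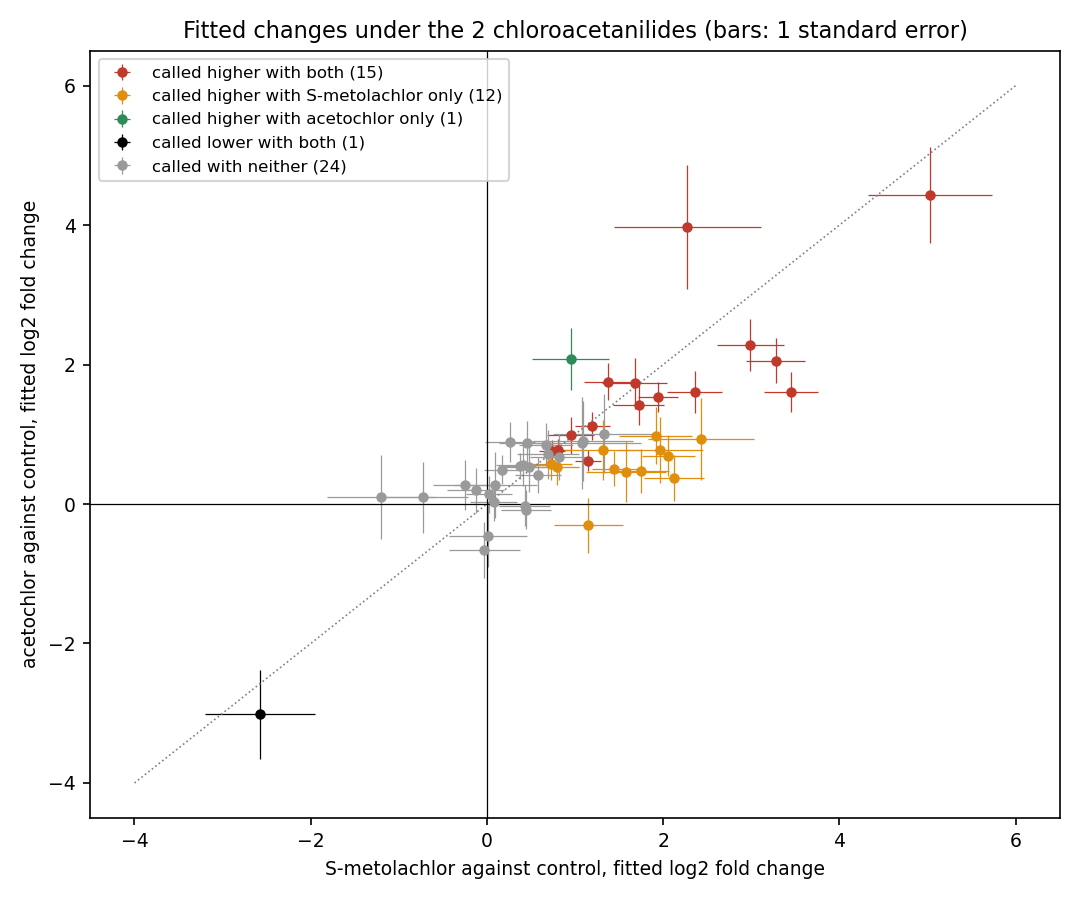
Fitted log2 fold change against control with S-metolachlor (horizontal) and acetochlor (vertical) for 53 transcripts, with bars of 1 standard error and a dotted line of equal change. Both axes share the control libraries. The 12 transcripts called higher with S-metolachlor only lie below the dotted line, with acetochlor values from -0.31 to 0.98.

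The spread between replicates is described here without ranking the groups, since the rule required the herbicide libraries not to overlap between classes and set no such condition on control. The coefficient of variation had a median over members of 13.3% with S-metolachlor, 17.0% with trifluralin, 21.9% in control, 25.5% with acetochlor and 27.0% with pendimethalin. Over all transcripts tested the medians were 17.6%, 29.0%, 31.1%, 30.7% and 34.5% in the same order. It exceeded 50% in 14 members with acetochlor and 10 with pendimethalin, and in 2, 5 and 3 with S-metolachlor, trifluralin and control. No library was steadily the extreme of the acetochlor group. Replicate 1 was the highest of the 3 in 22 members and the lowest in 18. Pendimethalin replicate 3 was the highest of its group in 34 members.

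Names and relative lengths are the further traits of the members at hand. Each carries a different Trinity gene name, which the assembler gives to a group of related transcripts, and 29 have other rows with their Trinity gene name in the table. The last digit of the names, which the sources used here do not explain, was 1 in 19 members, 5 in 18, 3 in 9, 2 in 6 and 4 in 1. Names ending in 1, 2, 3, 4 and 5 made up 35.8%, 11.3%, 17.0%, 1.89% and 34.0% of members. Over all rows they made up 29.3%, 12.3%, 19.4%, 17.8% and 21.1%. With the classes exchanged in the rule, as described below, 53 of the 161 transcripts had names ending in 4. Shares among rows that reach 5 FPKM were not counted. Why names ending in 4 were fewer among members was not tested. No 2 rows of the table share both Trinity gene name and digit, so the other rows with a member's Trinity gene name all end in another digit. Whether rows with unlike digits are related was not tested, nor whether members with unlike digits come from the same gene. Sums per Trinity gene were not formed. Relative length, taken from the ratio of expected count to FPKM, had a median of 2.29 times that of all rows, with a range from 0.312 to 7.67. The median was 1.84 over the 7339 rows that reached 5 FPKM under both chloroacetanilides, the level the rule asks for. The component pair TRINITY_DN7391_c0_g1_i1_5 and TRINITY_DN7391_c0_g2_i1_5 was at 4.20 to 7.37 and 6.36 to 12.1 FPKM in control, and shares a component as the DN8507 pair does.

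The same rule with the classes exchanged gave 161 transcripts that were higher under both dinitroanilines. There the control libraries lay below all dinitroaniline libraries in 31.1% and above all chloroacetanilide libraries in 32.9%. Among the 53 members the corresponding shares were 52.8% below the chloroacetanilides and 22.6% above the dinitroanilines. These shares are in FPKM and depend on the scale. With TMM-scaled values the members' counts of 28 and 12 became 18 and 15, and the exchanged set was not recounted. No test of this difference was made, because the herbicide libraries chose both sets.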

How the data were processed

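RNA-seq of 15 mycelial libraries was analysed, 3 for each of 5 groups taken from the labels. The authors deposited expected counts, estimated fragments per transcript that need not be whole, and FPKM values, both per assembled transcript. The submitters' processing notes list Bowtie2, DESeq and Trimmomatic with no version, and the build mm10, a mouse build to which the row names do not belong. The sources used here give neither the assembly settings nor the counting software. The members and lists were chosen with earlier results of these data known.

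The rule was applied to FPKM. Expected counts were rounded to whole numbers, and edgeR's quasi-likelihood test (edgeR 4.0.16, R 4.3.3, TMM scaling, filterByExpr with a minimum count of 10 and total of 15) was fitted to all 15 libraries, with Benjamini-Hochberg adjustment over 17555 transcripts. The design had foreseen whole counts. Standard errors were taken as the size of the log2 change over the root of the F statistic, and intervals are 95%. Alternatives used DESeq2 1.42.0, limma 3.58.1 on log2(FPKM + 1) or log2(FPKM + 0.1), upper-quartile scaling, no filter, a replicate block, fits of the 2 groups compared, each library left out, and TMM-scaled values or other thresholds in the rule. The edgeR step was tested on simulated data.

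Named transcripts were, for each comparison, the 2 largest rises and 2 largest falls among members that were called, had groups that did not overlap and reached 10 CPM, plus the 2 with the highest chloroacetanilide mean. Others named for a count of 5 or fewer or as further examples were chosen after their values were seen. Library totals ranged from 22923346 to 24766457. Growth measurements were not analysed here.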

Additional observations from a re-analysis of the deposited data

How the results depend on the processing

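No called fold change of a named member changed sign under the alternatives run. The number of members was 22 with a fold of 2, 122 with a minimum of 1 FPKM and 51 to 106 with a library left out. The count with control below all chloroacetanilide libraries, 28, was 18 with TMM-scaled values, 10 with a fold of 2 and 28 to 32 with a library left out. The count with control above all dinitroaniline libraries, 12, was 12 to 26 with a library left out. Fitting the 2 groups compared alone left 11 calls with acetochlor, 9 with trifluralin and 4 with pendimethalin. DESeq2 gave 20 calls with pendimethalin and 13 for acetochlor against S-metolachlor, where limma gave 15 and 14 with pseudocounts of 1 and 0.1. With a library left out the calls ran from 23 to 27 with S-metolachlor, 12 to 16 with acetochlor, 2 to 16 with trifluralin, 6 to 18 with pendimethalin and 6 to 14 between the chloroacetanilides. The cause of these shifts was not tested.

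Equal replicate numbers did not go with higher correlations between libraries. Correlations of the libraries' deviations from their group means had a median of -0.05 for equal numbers and 0.02 for unequal ones. Single pairs of libraries ran from -0.58 to 0.54 for equal numbers and from -0.57 to 0.61 for unequal ones. Since transcripts vary together and each group mean rests on 3 libraries, these values cannot show whether libraries of different groups are related or paired. With the replicate block the calls numbered 28, 16, 11, 10 and 10 for S-metolachlor, acetochlor, trifluralin, pendimethalin and the direct comparison.

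Unscaled FPKM in limma with a pseudocount of 1 moved the median log2 change of all transcripts from 0.09 to 0.24 with S-metolachlor, from -0.01 to 0.11 with trifluralin and from 0.02 to 0.14 with pendimethalin. Calls over all transcripts with S-metolachlor were then 5729 higher and 3066 lower, against 4283 and 3815. For acetochlor against S-metolachlor they were 2524 and 4398, against 3137 and 3418. With a pseudocount of 0.1 they were 2182 and 1137 with trifluralin and 1914 and 852 with pendimethalin. Upper-quartile scaling moved the trifluralin median to -0.11, and the calls over all transcripts from 1349 higher and 1229 lower to 1136 and 1496 with trifluralin and from 1290 and 973 to 1105 and 1148 with pendimethalin. Counts under 10 occurred in some library in 2 members.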
